A study of Mus musculus with 16 samples.

Results

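The genes described are Herpud1 and 9 further genes of endoplasmic reticulum (ER) quality control, Sel1l, Syvn1, Derl1, Edem1, Hspa5, Dnajb9, Atf4, Xbp1 and Ddit3. They were taken by symbol from the deposited matrix, where they are 10 of 55487 gene identifiers, and all 10 were among the 18609 genes that had enough reads to be tested. Herpud1 was chosen by its difference between evacetrapib- and vehicle-treated mice in these same libraries, so its values in that contrast, and those of the other members, are given as a description and carry no p. Proteins that fail to fold in the ER are pulled back across its membrane, tagged with ubiquitin and degraded by the proteasome, a route called ER-associated degradation (ERAD). When unfolded proteins accumulate, the sensors IRE1, PERK and ATF6 start the unfolded protein response, which acts through the transcription factors XBP1, ATF4 and ATF6 to raise the levels of chaperones and of ERAD components. Secretory and neuronal proteins, APP among them, mature through this compartment.

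RNA came from brains of 16 female mice, 4 in each combination of 2 genotypes and 2 treatments, and the reads of poly(A) RNA were counted per gene. CETPtg mice carry a transgene for the cholesteryl ester transfer protein, a plasma lipid transfer protein absent from wild-type mice. In APPtg/CETPtg mice a further transgene encodes human APP with the Swedish and Indiana mutations under the Thy1 promoter, which is active in neurons. Both genotypes are on a C57/bl6 background, were switched at an age of 11 weeks to chow holding 1% cholesterol, which induces the CETP transgene, and then received daily intraperitoneal injections for 11 weeks. The injections held 30 mg per kg of the CETP inhibitor evacetrapib (CETPtg mice A to D, APPtg/CETPtg mice E to H) or the vehicle, Kolliphor EL with glucose (CETPtg mice S1 to S4, APPtg/CETPtg mice S5 to S8). Comparing the treatments asks what inhibition of CETP does to these transcripts in brain, and comparing the genotypes asks what the mutant APP transgene adds. Every mouse carries CETP, so no group shows the genes without it, and in bulk tissue fewer cells of a type and less RNA per cell cannot be told apart.

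Total counts lay between 28626139 and 37709734 per mouse in the vehicle-treated CETPtg group and between 33684250 and 46800787 in the evacetrapib-treated one. In APPtg/CETPtg mice they lay between 21866883 and 55453789 with vehicle, the upper value being that of S8, and between 21391335 and 25854334 with evacetrapib. The member with the fewest reads, Edem1, still had at least 301 counts in each mouse. The libraries of the genotypes occupied separate columns of the index plate and those of the treatments separate rows, so these positions cannot be told apart from the groups. The 5 neuronal and 5 astrocyte markers looked up all had counts in every mouse. Their summed levels were 4711 to 5554 and 721 to 1027 CPM (read counts scaled to library size). The oligodendrocyte gene Mbp averaged 2159 CPM. Marker levels are given without TMM factors, and levels of members and pathway genes with them. Marker RNA of the choroid plexus and of the pituitary varied between mice. The 5 choroid plexus markers summed to more than 100 CPM in B (123 CPM), S3 (168 CPM), S7 (120 CPM) and S8 (461 CPM), against 10.7 to 40.1 CPM in the other mice, and the 5 pituitary markers summed to 874 CPM in E and to at most 20.7 CPM elsewhere.

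Per kilobase of exon, the level of the members spanned a wide range, with the chaperone Hspa5 highest at 51.2 ± 5.29 CPM per kb (SD, n = 16) and the mannosidase-like lectin Edem1 lowest at 2.56 ± 0.250 CPM per kb. Atf4 came second with 43.4 ± 6.45 CPM per kb, lower than Hspa5 in 15 of 16 mice. Herpud1, with 23.1 ± 1.93 CPM per kb, and Sel1l, with 22.9 ± 1.19 CPM per kb, did not differ beyond their spread, and Herpud1 was the higher of the pair in 8 of 16 mice. Xbp1 (18.6 ± 1.83 CPM per kb) and Derl1 (17.3 ± 0.970 CPM per kb) also lay within their spread of each other, although Xbp1 was higher in 15 of 16 mice. Ddit3 had 13.1 ± 1.28, Syvn1 11.8 ± 0.588 and Dnajb9 11.3 ± 1.01 CPM per kb, and of these Syvn1 and Dnajb9 lay within their spread. Between mice of the same group, Herpud1 varied least among the members, with a standard deviation of 0.056 in log2 CPM, a spread that its selection by a difference between groups favoured. The median over all genes tested was 0.138 and the lowest quartile 0.0862, while Atf4, the member that varied most, reached 0.193.

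Herpud1 (ENSMUSG00000031770, chromosome 8 of GRCm38, 94386438 to 94395377) encodes an ER membrane protein with a ubiquitin-like domain that helps to organise the ERAD ubiquitin ligase. It had 54.5, 55.05, 57.4 and 54.5 CPM in the vehicle-treated CETPtg mice S1 to S4, and 53.5, 53.9, 52.1 and 49.98 CPM in the evacetrapib-treated CETPtg mice A to D. In APPtg/CETPtg mice, the level was 59.8, 61.5, 60.8 and 54.8 CPM with vehicle (S5 to S8) and 51.0, 46.6, 47.6 and 48.55 CPM with evacetrapib (E to H). All 8 evacetrapib-treated mice were lower than all 8 vehicle-treated mice, the closest pair being B at 53.9 and S4 at 54.45 CPM, and S8 was the lowest of its group. The gap between the treatments was also present without TMM scaling, where the highest evacetrapib-treated mouse had 53.4 CPM and the lowest vehicle-treated mouse 54.0 CPM. Herpud1 was 1 of 3 genes (0.0161%) that were lower in every evacetrapib-treated mouse, and the only member among them, in the contrast it was chosen on.

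The log2 fold change of Herpud1 with evacetrapib was -0.18 over all mice (standard error, SE, 0.041), an 11.9% lower level. It was -0.08 in CETPtg mice (SE 0.048) and -0.29 in APPtg/CETPtg mice (SE 0.049), and the difference between these effects was -0.21 (SE 0.068). Group means were 55.4 ± 1.40 and 52.4 ± 1.77 CPM (SD, n = 4) in vehicle- and evacetrapib-treated CETPtg mice, and 59.2 ± 3.06 and 48.4 ± 1.86 CPM in the APPtg/CETPtg groups. With vehicle, the APPtg/CETPtg mean was therefore the higher of the genotypes, and with evacetrapib it was the lower. The genotype contrast did not choose Herpud1, and its log2 fold change there was 0.10 with vehicle (SE 0.048, adjusted p = 0.222), -0.11 with evacetrapib (SE 0.048, adjusted p = 0.205) and -0.008 over all mice (SE 0.041, adjusted p = 0.928), all from the edgeR quasi-likelihood F-test after Benjamini-Hochberg correction. None of these 3 passed. Vehicle-treated APPtg/CETPtg mice other than S8 lay above every vehicle-treated CETPtg mouse, and evacetrapib-treated APPtg/CETPtg mice other than E lay below every CETPtg mouse of their treatment. Over all mice the sign of the genotype value turned positive when A, B, F or S8 was left out, and it ran from -0.03 to 0.006.

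**Figure D1:**
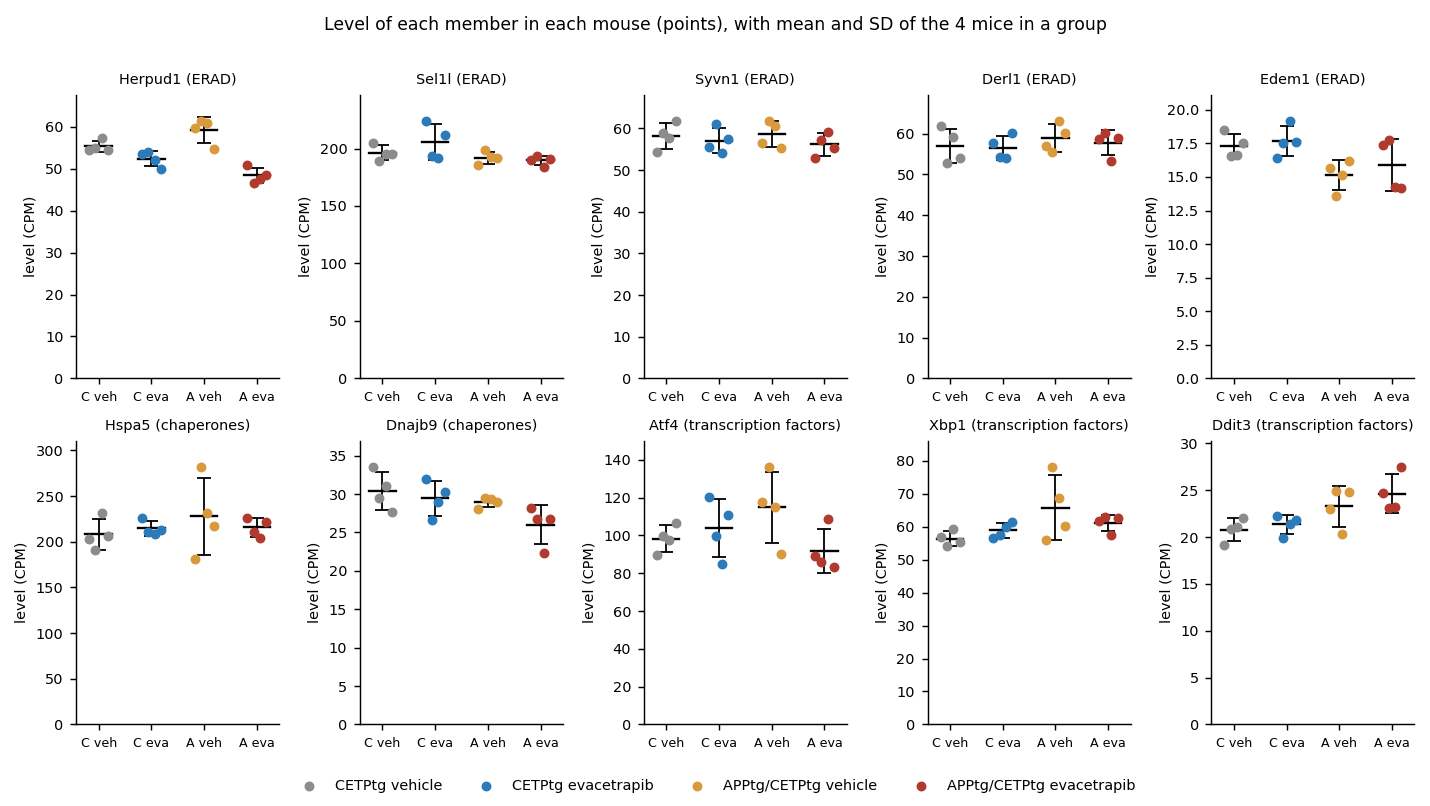
Level of each member in CPM (y axis, from 0) in every mouse, by group (C, CETPtg; A, APPtg/CETPtg; veh, vehicle; eva, evacetrapib), with the mean and SD of 4 mice. The 8 evacetrapib-treated mice reach at most 53.9 CPM for Herpud1 and the 8 vehicle-treated mice start at 54.45 CPM.

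Sel1l (ENSMUSG00000020964, chromosome 12, 91806043 to 91849157) is the adaptor, and Syvn1 (ENSMUSG00000024807, chromosome 19, 6046576 to 6053712), also called Hrd1, the ubiquitin ligase of the main ERAD complex. Sel1l had 205, 189, 196 and 195 CPM in S1 to S4, 224, 194, 192 and 212 CPM in A to D, 186, 199, 192 and 191 CPM in S5 to S8 and 190, 193, 184 and 191 CPM in E to H. Mice A and D stood above the others, and the groups overlapped in all contrasts. Its log2 fold change with evacetrapib was 0.066 in CETPtg mice (SE 0.048) and -0.018 in APPtg/CETPtg mice (SE 0.048). Between the genotypes, Sel1l had a log2 fold change of -0.073 (SE 0.035, lower than the CETPtg mean of the same treatment in 7 of 8 APPtg/CETPtg mice), which did not pass (adjusted p = 0.157, edgeR quasi-likelihood F-test, Benjamini-Hochberg). Syvn1 ranged only from 52.9 to 61.9 CPM over the 16 mice, with log2 fold changes of -0.044 for evacetrapib (SE 0.039) and -0.007 for the genotype (SE 0.039, adjusted p = 0.935 by the same test). The end of Syvn1 overlaps that of Mrpl49 on the opposite strand, which had 722 to 1821 counts, and the strand setting of the counting was not stated.

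Derl1 (ENSMUSG00000022365, chromosome 15, 57869502 to 57892448) encodes a derlin of the channel through which substrates leave the ER. Its level was between 52.9 and 63.2 CPM in all mice, and its log2 fold change was -0.02 with evacetrapib (SE 0.042) and 0.041 between genotypes (SE 0.042, adjusted p = 0.56, edgeR quasi-likelihood F-test, Benjamini-Hochberg). Edem1 (ENSMUSG00000030104, chromosome 6, 108828641 to 108859356), which hands misfolded glycoproteins to the ligase complex, had 18.5, 16.6, 16.6 and 17.55 CPM in S1 to S4 and 16.4, 17.5, 19.2 and 17.6 CPM in A to D. In APPtg/CETPtg mice, Edem1 was at 15.65, 13.6, 15.2 and 16.2 CPM with vehicle and at 17.4, 17.8, 14.2 and 14.2 CPM with evacetrapib. Of the APPtg/CETPtg mice, 6 of 8 lay below every CETPtg mouse, the exceptions being E and F, and with vehicle alone the genotypes did not overlap. Edem1 was downregulated in APPtg/CETPtg mice over both treatments, its log2 fold change being -0.17 (SE 0.057, adjusted p = 0.0445, edgeR quasi-likelihood F-test, Benjamini-Hochberg). The same test gave -0.19 with vehicle (SE 0.082, adjusted p = 0.156) and -0.15 with evacetrapib (SE 0.082, adjusted p = 0.328). The call was close to the threshold. It was kept in 5 of 16 fits that left out 1 mouse (A, E, F, S2 or S8), and without any 1 of B, C, D, G, H, S1, S3, S4, S5, S6 or S7 the adjusted p rose as far as 0.0893, the value without C. It was also lost with no filter on low counts (adjusted p = 0.0666), with a replicate block (adjusted p = 0.0636) and without the 5 mice with high choroid plexus or pituitary markers (adjusted p = 0.0563, log2 fold change -0.235). Evacetrapib gave Edem1 a log2 fold change of 0.048 (SE 0.057).

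Hspa5 (ENSMUSG00000026864, chromosome 2, 34771970 to 34777547), or BiP, is the main Hsp70 chaperone of the ER and holds the stress sensors inactive when it is not occupied by unfolded proteins. It had 203, 191, 232 and 207 CPM in S1 to S4, 226, 211, 208 and 213 CPM in A to D, 181, 282, 232 and 217 CPM in S5 to S8 and 226, 211, 204 and 222 CPM in E to H. The lowest and the highest of all 16 mice, S5 and S6, were both vehicle-treated APPtg/CETPtg mice, and each group overlapped with the others. The log2 fold change with evacetrapib was -0.017 over all mice (SE 0.064). Between the genotypes it was 0.069 (SE 0.064, adjusted p = 0.512), and with vehicle alone 0.13 (SE 0.090, adjusted p = 0.393), and neither passed the edgeR quasi-likelihood F-test after Benjamini-Hochberg correction. Both values rested on S5 and S6, being 0.106 and 0.226 without S5 and 0.004 and 0.007 without S6. The evacetrapib value of Hspa5 in APPtg/CETPtg mice, -0.08 (SE 0.091), became 0.042 without S6 and -0.173 without S5.

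Dnajb9 (ENSMUSG00000014905, chromosome 12, 44205559 to 44210326), or ERdj4, is a co-chaperone of Hspa5 that returns it to the sensor IRE1, and its gene is a target of XBP1. Its level was 33.6, 29.5, 31.0 and 27.7 CPM in S1 to S4, 32.0, 26.6, 29.0 and 30.3 CPM in A to D, 28.0, 29.5, 29.3 and 28.9 CPM in S5 to S8 and 28.2, 26.75, 22.3 and 26.7 CPM in E to H. G was the lowest of all mice, and the groups overlapped. All 8 APPtg/CETPtg mice were below the CETPtg mean of their treatment, and the log2 fold change between the genotypes was -0.13 (SE 0.052, adjusted p = 0.0996, edgeR quasi-likelihood F-test, Benjamini-Hochberg), which did not pass. It passed when S4 was left out, with an adjusted p of 0.0404, and the adjusted p over all 16 such fits reached 0.189. With evacetrapib, the log2 fold change of Dnajb9 was -0.046 in CETPtg mice (SE 0.072) and -0.15 in APPtg/CETPtg mice (SE 0.074).

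Atf4 (ENSMUSG00000042406, chromosome 15, 80255184 to 80257541), the transcription factor whose translation rises when PERK or another kinase phosphorylates eIF2, is regulated mainly in protein synthesis, which counts of its transcript do not measure. Atf4 had 89.5, 99.8, 97.7 and 106 CPM in S1 to S4 and 121, 99.7, 85.1 and 111 CPM in A to D. Its levels in APPtg/CETPtg mice were 118, 136, 115 and 90.3 CPM with vehicle and 89.0, 86.0, 109 and 83.2 CPM with evacetrapib. S5, S6 and S7 were above every vehicle-treated CETPtg mouse, S8 was not, and among the evacetrapib-treated APPtg/CETPtg mice G stood apart at the level of the vehicle groups. Its log2 fold change with evacetrapib was 0.083 in CETPtg mice (SE 0.11) and -0.32 in APPtg/CETPtg mice (SE 0.11). The difference of -0.40 between these effects (SE 0.16) was the largest in size of any member. Between the genotypes, Atf4 had log2 fold changes of 0.22 with vehicle (SE 0.11, adjusted p = 0.235) and -0.18 with evacetrapib (SE 0.11, adjusted p = 0.399), and neither passed the edgeR quasi-likelihood F-test after Benjamini-Hochberg correction. Over all mice the value was 0.019, and it turned negative when any 1 of C, G, S1, S3, S5, S6 or S7 was left out, with a range from -0.044 to 0.069.

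Xbp1 (ENSMUSG00000020484, chromosome 11, 5520659 to 5525893) encodes the factor that becomes active when IRE1 splices its transcript, and counts per gene do not separate the spliced from the unspliced form. It had 56.8, 54.0, 59.3 and 55.3 CPM in S1 to S4, 56.55, 57.6, 60.0 and 61.4 CPM in A to D, 55.9, 78.2, 68.7 and 60.3 CPM in S5 to S8 and 61.6, 62.8, 57.4 and 62.5 CPM in E to H. S6 and S7 had the highest levels of all mice, while S5 of the same group was within the CETPtg range. With vehicle, the log2 fold change between the genotypes was 0.22 (SE 0.075, adjusted p = 0.0664, edgeR quasi-likelihood F-test, Benjamini-Hochberg), and 3 of 4 APPtg/CETPtg mice lay above every CETPtg mouse. This did not pass. DESeq2 called it with an adjusted p of 0.033, and with edgeR the adjusted p was 0.0178 without S5 and up to 0.222 in the other fits that left out 1 mouse. The same contrast was 0.14 over all mice (SE 0.055, adjusted p = 0.0926) and 0.053 with evacetrapib (SE 0.075, adjusted p = 0.762) from the edgeR quasi-likelihood F-test with Benjamini-Hochberg correction, and over all mice it passed when S5 was left out (adjusted p = 0.048). With evacetrapib over all mice, Xbp1 had a log2 fold change of -0.02 (SE 0.055).

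Ddit3 (ENSMUSG00000025408, chromosome 10, 127290774 to 127296288), or CHOP, is a transcription factor induced by ATF4 under prolonged ER stress and promotes cell death. It had 19.1, 20.9, 21.05 and 22.1 CPM in S1 to S4, 22.3, 19.9, 21.4 and 21.85 CPM in A to D, 23.0, 24.97, 20.3 and 24.8 CPM in S5 to S8 and 24.7, 23.1, 23.2 and 27.5 CPM in E to H. All APPtg/CETPtg mice except S7 were above all CETPtg mice, 7 of 8, and H was the highest. Ddit3 was upregulated in APPtg/CETPtg mice with a log2 fold change of 0.18 (SE 0.050, adjusted p = 0.0156, edgeR quasi-likelihood F-test, Benjamini-Hochberg), a 13.6% higher level. In all 16 fits that left out 1 mouse the call was kept, at adjusted p values up to 0.0449. It was lost, at an adjusted p of 0.0602 and an unchanged log2 fold change of 0.18, when the 5 mice with high choroid plexus or pituitary markers were left out. Within a treatment the log2 fold change was 0.17 with vehicle (SE 0.073, adjusted p = 0.157) and 0.20 with evacetrapib (SE 0.073, adjusted p = 0.132), and neither passed the edgeR quasi-likelihood F-test after Benjamini-Hochberg correction. A second identifier with the symbol Ddit3 had 0 counts in all mice and was not tested. Mars1, which overlaps the end of Ddit3 on the opposite strand, had 1183 to 3090 counts, and its part in the result was not tested.

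With evacetrapib over all mice, 3 members were higher and 7 lower, and 0 of 10 passed the thresholds of edgeR (1 had an unadjusted p below 0.05, and DESeq2 called 1), beside 2 of 18609 genes (0.0107%). Of all genes, DESeq2 called 59, and 1472 had an unadjusted p below 0.05 with edgeR. In CETPtg mice, 6 were higher and 4 lower, and 0 of 10 passed with edgeR (0 had an unadjusted p below 0.05, and DESeq2 called 0), beside 0 of all genes (0%), of which 1079 had an unadjusted p below 0.05 and DESeq2 called 0. In APPtg/CETPtg mice, 2 were higher and 8 lower, and 1 of 10 was past the thresholds of edgeR, beside 8 of all genes (0.043%). That member was Herpud1, for which this is no test, since it was chosen on the same values. The 8 genes were all lower with evacetrapib, but DESeq2 called 32 genes higher and 41 lower, and edgeR with no filter 35 higher and 53 lower. That count of 8 depended on single mice, with 0 without G, 3 without S7, 4 without F, S2 or S4, 5 without H or S5 and 14 without S8, and Herpud1 was not called without F, G, H, S2, S4, S5, S6 or S7. The count of 2 over all mice was 0 without any 1 of B, D, E, F, H, S1, S3, S5 or S7, 1 without G, 4 without S4 and 8 without S8. Herpud1 was also the only member whose treatment groups did not overlap within a genotype, where 3.92% of genes in CETPtg mice and 4.29% in APPtg/CETPtg mice were separated in this way. For the difference between the genotypes' effects, 0 of 10 members and 0 of all genes (0%) passed with edgeR, with 2 members and 1271 genes at an unadjusted p below 0.05, and DESeq2 called 0 members and 2 genes. Without S2, edgeR called 1 gene there. The median log2 fold change of the members was -0.02 over all mice, 0.037 in CETPtg mice and -0.070 in APPtg/CETPtg mice, and without Herpud1 the last value was -0.059. All genes had medians of -0.00148, -0.00243 and -0.00106 in these contrasts. Since Herpud1 was selected on them, nothing is read from these counts.

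Between APPtg/CETPtg and CETPtg mice, 2 of 10 members passed, Ddit3 upward and Edem1 downward, beside 3299 of 18609 genes (17.7%), so the members' share was near that of all genes. Their median log2 fold change was 0.0062 and that of all genes 0.0046, with 5 members higher and 5 lower. With vehicle, 0 of 10 members passed with edgeR (3 had an unadjusted p below 0.05, and DESeq2 called 1, Xbp1), beside 1934 of all genes (10.4%), where 4687 had an unadjusted p below 0.05 and DESeq2 called 2429. With evacetrapib, 0 of 10 passed with edgeR (4 had an unadjusted p below 0.05, and DESeq2 called 0), beside 556 of all genes (2.99%), where 3585 had an unadjusted p below 0.05 and DESeq2 called 1135. The last 2 background counts moved by more than 1.5 times with single mice. The count with vehicle fell to 1007 without S1, 909 without S3 and 1215 without S8. The count with evacetrapib was 91 without A, 223 without C, 335 without E or H, 206 without F and 300 without G, and 858 without B. Levels of the genotypes did not overlap for 0 members over all mice (3.03% of genes), for 1 with vehicle (Edem1, 17% of genes) and for 1 with evacetrapib (Ddit3, 10.8% of genes). The treatment and genotype contrasts share mice, so their values for a member are not independent.

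**Figure D2:**
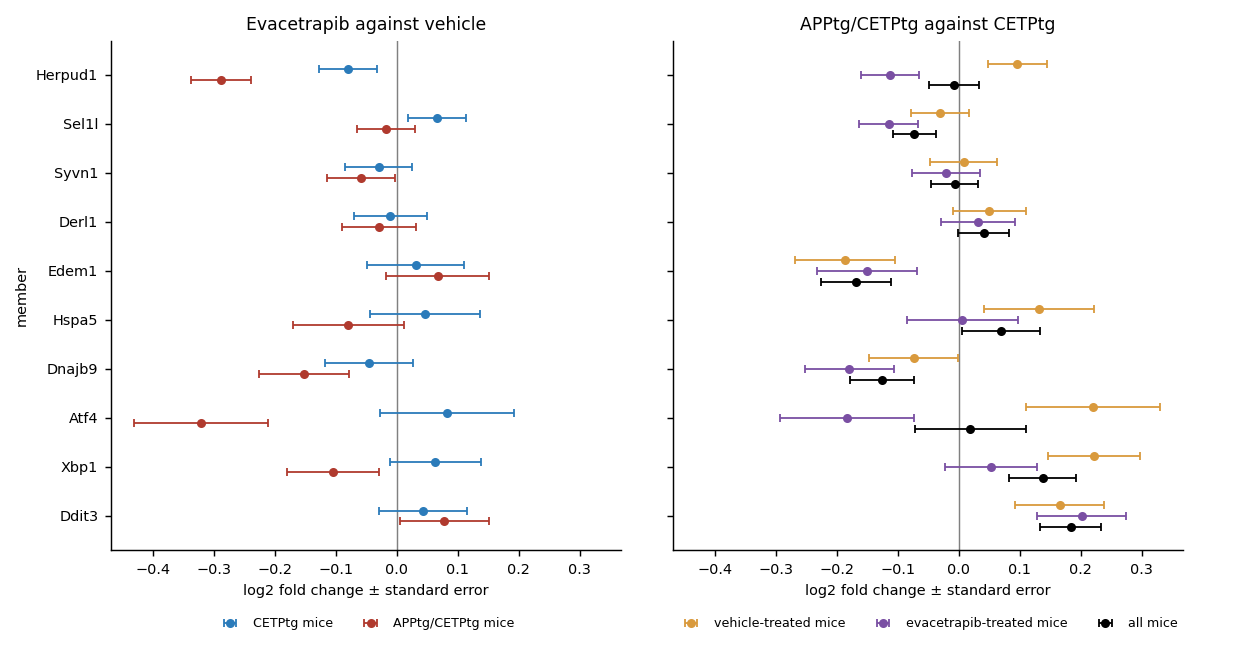
Log2 fold change of each member (x axis, with standard error derived from the edgeR F statistic) for evacetrapib against vehicle within each genotype (left) and for APPtg/CETPtg against CETPtg mice (right). Herpud1 with -0.29 and Atf4 with -0.32 lie farthest to the left in the APPtg/CETPtg treatment contrast, and Ddit3 lies right of 0 in all 3 genotype contrasts.

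Markers of several cell types had higher or lower means with evacetrapib, and their part in the result for Herpud1 was not tested. Over all mice, edgeR called Myh11 alone, whereas DESeq2 called 5 markers higher (Myh11, Acta2, Tagln, Rgs5 and Pecam1). The 5 markers of smooth muscle cells and pericytes, of which Rgs5 was the most abundant, were all higher (median log2 fold change 0.48) and Myh11 passed (0.56, SE 0.080, adjusted p = 0.0193, edgeR quasi-likelihood F-test, Benjamini-Hochberg). Their summed level was 92.35, 86.7, 86.5 and 100.4 CPM in S1 to S4, 106, 104, 108 and 115 CPM in A to D, 80.8, 75.04, 77.8 and 97.5 CPM in S5 to S8 and 104.5, 106, 105 and 118.5 CPM in E to H. On this scale, without TMM factors, all evacetrapib-treated mice were therefore above all vehicle-treated mice. Even so, no gene at all was called over all mice, Myh11 included, when any 1 of B, D, E, F, H, S1, S3, S5 or S7 was left out. The 5 endothelial markers, with Itm2a the most abundant, were also all higher (median 0.24), and 0 passed with edgeR (3 had an unadjusted p below 0.05). They summed to 137, 137, 136 and 150.4 CPM in S1 to S4, 155.5, 139, 156 and 150.4 CPM in A to D, 124, 135, 133 and 151 CPM in S5 to S8 and 161, 151, 185 and 162 CPM in E to H. S4 and S8 reached the levels of evacetrapib-treated mice. None of these markers was at 0 in any mouse. All 5 choroid plexus markers were lower with evacetrapib over all mice (median -0.71) and in APPtg/CETPtg mice (median -1.03), where S7 and S8 held the high levels given above, and 0 passed with edgeR (0 and 2 had an unadjusted p below 0.05). In APPtg/CETPtg mice all 5 meningeal fibroblast markers (median 0.40) and 4 of 5 astrocyte markers (median 0.15) were higher, and 0 passed with edgeR (3 of each had an unadjusted p below 0.05). All 5 neuronal markers (median -0.093) and all 5 red blood cell markers (median -0.415) were lower there, as were both hypothalamic markers tested, and 0 passed with edgeR (1, 0 and 0 had an unadjusted p below 0.05). The oligodendrocyte genes Mbp (-0.11) and Mobp (-0.094) were lower as well. All 5 microglial markers (median 0.051) and all 4 olfactory bulb markers (median 0.93) were higher, and 0 passed with edgeR (1 and 0 had an unadjusted p below 0.05). DESeq2 called 0 markers of these lists. Of the smooth muscle and pericyte markers, it called 3 higher in APPtg/CETPtg mice (Myh11, Tagln and Rgs5), where edgeR called 0. Several lists went the other way in CETPtg mice. There, 4 of 5 neuronal markers (median 0.064), all 5 red blood cell markers (median 0.386) and 4 of 5 oligodendrocyte markers (median 0.023) were higher. All 4 olfactory bulb markers (median -0.689) and 4 of 5 microglial (median -0.044) and meningeal fibroblast markers (median -0.014) were lower. Of these, 0 were called by edgeR or DESeq2, and 0 had an unadjusted p below 0.05. Choroid plexus markers (4 of 5, median -0.10) and both hypothalamic markers tested (median -2.8) were lower in CETPtg mice too. Of these, 0 were called by edgeR or DESeq2, and 1 hypothalamic marker had an unadjusted p below 0.05.

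Markers of other cells moved with the APP genotype, and their part in the results for Ddit3 and Edem1 was not tested. The oligodendrocyte genes Mbp and Mobp were downregulated in APPtg/CETPtg mice, with log2 fold changes of -0.20 (SE 0.065) and -0.23 (SE 0.057). Of 5 microglial markers, 4 were higher and 2 passed, Tmem119 and C1qa. Their sums were 243, 251.5, 240 and 264 CPM in S1 to S4, 224.5, 261, 237 and 230.5 CPM in A to D, 259, 253, 240.5 and 292 CPM in S5 to S8 and 267, 276, 294.5 and 270 CPM in E to H, with Csf1r the most abundant. Without TMM scaling, all evacetrapib-treated APPtg/CETPtg mice were above all evacetrapib-treated CETPtg mice, the closest pair being E and B. The TMM factors of E and B were 1.026 and 0.9908, and dividing by them reverses this pair, so the separation depended on the scaling. Among the other lists, 1 of 5 neuronal markers was higher (Stmn2), and 1 of 5 for astrocytes (Gja1), 1 of 3 for oligodendrocyte precursors (Pdgfra) and 1 of 5 for endothelial cells (Slco1a4) were lower past the thresholds. DESeq2 also called Syt1 and Aqp4 lower and Ly6c1 higher. With vehicle alone, 3 of 5 astrocyte markers were lower past the thresholds (median of the 5 -0.205). Of the markers of smooth muscle cells and pericytes, meningeal fibroblasts, choroid plexus, pituitary, olfactory bulb, hypothalamus and red blood cells, 0 passed between the genotypes over all mice with edgeR, and 1 pericyte and 1 choroid plexus marker had an unadjusted p below 0.05. Of the 5 pituitary markers only 1, and of the 4 hypothalamic markers only 2, had enough counts to be tested. That pituitary marker, Pomc, was higher past the thresholds with evacetrapib alone (4.98), the treatment of mouse E, and DESeq2 did not call it.

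Other genes of the same pathways were examined in 5 lists, which hold 89 genes, all of them tested. With evacetrapib over all mice, 0 of 89 passed with edgeR or DESeq2, and 9 had an unadjusted p below 0.05. The 13 targets of ATF4 and CHOP were the list farthest from all genes in APPtg/CETPtg mice, where 10 were lower with evacetrapib, with a median log2 fold change of -0.22 against -0.00106 for all genes. In that contrast 0 passed with edgeR and 6 had an unadjusted p below 0.05, as did 1677 of 18609 genes. Ddit4, a stress-induced inhibitor of mTORC1, had a log2 fold change of -0.51 (SE 0.12) and the pseudokinase gene Trib3 -0.47 (SE 0.23), while the cystine transporter gene Slc7a11 had 0.32 (SE 0.094). In CETPtg mice the same list had a median of -0.050, and 10 of 13 were lower. The other lists had medians of 0.015 (9 sensors and transcription factors), -0.033 (18 chaperones and folding enzymes), -0.038 (34 ERAD genes) and -0.045 (15 heat shock genes) in APPtg/CETPtg mice. For the difference between the genotypes' effects, all 15 heat shock genes had negative values (median -0.12, against -0.00112 for all genes), 0 passed with edgeR and 4 had an unadjusted p below 0.05, as did 1271 of all genes. The lists were chosen with earlier results of these libraries known, so their direction is no independent support for that of Atf4 or Herpud1.

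Between the genotypes, 18 of the 89 pathway genes passed over all mice (20.2%, against 17.7% of all genes), 11 upward and 7 downward. ERAD genes moved both ways, 5 of 34 upward and 6 downward, as did Ddit3 and Edem1 among the members. Erlec1, a lectin that reads the glycans of misfolded proteins, was downregulated (-0.17, SE 0.038, adjusted p = 0.00479, edgeR quasi-likelihood F-test, Benjamini-Hochberg), and so were the paralogue of Herpud1, Herpud2 (-0.12, SE 0.031, adjusted p = 0.0105), and the ER ubiquitin ligase gene Marchf6 (-0.15, SE 0.038, adjusted p = 0.0118). Each was below the CETPtg mean of its treatment in 8 of 8 APPtg/CETPtg mice, and each kept its call in all 16 fits that left out 1 mouse. Ube2g2, the ubiquitin-conjugating enzyme that works with Syvn1 and other ligases, was upregulated (0.14, SE 0.037, adjusted p = 0.0103, edgeR quasi-likelihood F-test, Benjamini-Hochberg) and lay above that mean in 8 of 8 mice. Ubqln2, which carries ubiquitinated proteins to the proteasome, was downregulated (-0.12). Without the 5 mice with high choroid plexus or pituitary markers, the calls of Ube2g2 (adjusted p = 0.0625) and Ubqln2 (adjusted p = 0.0884) were lost.

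Among the 9 sensors and transcription factors, 3 were upregulated in APPtg/CETPtg mice and 0 downregulated, namely Creb3 (0.18), Atf6b (0.11) and Atf3 (1.00, SE 0.28, adjusted p = 0.0191, edgeR quasi-likelihood F-test, Benjamini-Hochberg). Atf3, a factor downstream of ATF4, had only 15 to 81 counts per mouse, and its mean was 0.637 ± 0.0599 CPM in vehicle-treated CETPtg and 1.87 ± 1.3 CPM (SD, n = 4) in vehicle-treated APPtg/CETPtg mice. With evacetrapib the Atf3 means were 0.888 ± 0.104 and 1.26 ± 0.448 CPM, and its log2 fold change was 1.495 with vehicle and 0.49 with evacetrapib, where it did not pass. Without S6 the vehicle value was 0.981 and its call was lost (adjusted p = 0.0536), as it was with DESeq2, which gave no adjusted p, and without the 5 mice with high choroid plexus or pituitary markers (adjusted p = 0.0813). Of 18 chaperones and folding enzymes, 1 rose (Ppib, 0.099) and 1 fell (Canx, -0.11). Of 13 targets of ATF4 and CHOP, 1 rose, Ddit4 (0.32, SE 0.094, adjusted p = 0.0248, edgeR quasi-likelihood F-test, Benjamini-Hochberg), and of 15 heat shock genes 1 rose, Hspe1 (0.14), which encodes a mitochondrial co-chaperonin. Over all mice, Creb3 and Atf3 kept their calls in all 16 fits that left out 1 mouse, but without the 5 mice Atf3 lost its call (adjusted p = 0.0795). Ddit4 lost its call without E, S1, S3, S4, S5 or S7 (adjusted p up to 0.0601) and Canx without A, C, S1, S3, S5, S7 or S8. The others were kept only without A, B, E, H, S7 or S8 (Atf6b), without H or S2 (Ppib) and without A, D or G (Hspe1). With vehicle alone, 12 of the 89 passed (13.5%, against 10.4% of all genes), among them Ddit4 (0.53), Slc7a11 (-0.36) and the cytosolic chaperone genes Hspa8 (0.25) and Dnajb1 (0.23), and with evacetrapib alone 1 passed (1.12%, against 2.99% of all genes), Herpud2 (-0.16). With vehicle, the call of Slc7a11 was lost without S3 or S5, that of Dnajb1 without S3 or S7 and that of Hspa8 without S1, S2, S3, S6 or S7. The count of 18 fell to 11 without F and 8 without S1, and the count of 12 to 6 without S1 or S6, 7 without S2, S7 or S8 and 2 without S3. The single call with evacetrapib was lost without any 1 of A, C, D, E, F, G or H. Without the 5 mice with high choroid plexus or pituitary markers, 6 of 89 genes passed over all mice.

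**Figure D3:**
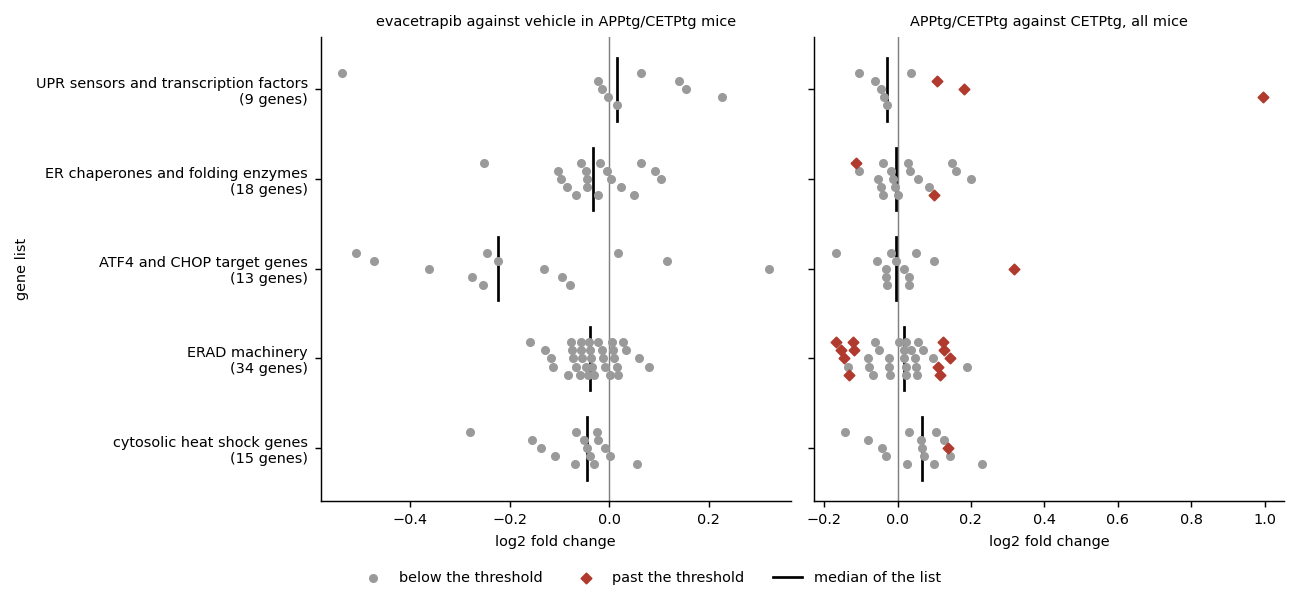
Log2 fold change (x axis) of each gene of the 5 pathway lists for evacetrapib against vehicle in APPtg/CETPtg mice (left) and APPtg/CETPtg against CETPtg over all mice (right), with diamonds for genes past the thresholds and bars at list medians. The ATF4 and CHOP targets have a median of -0.22 on the left, where no gene passed with edgeR (DESeq2 called 1), and the ERAD genes passed in both directions on the right.

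The variation of Herpud1 between mice of the same group was compared with that of the 9 other members after the mean of each group had been removed. A small spread helped to choose Herpud1, so these relations are not free of the selection. The correlation was highest with Hspa5, at r = 0.416 (two-sided permutation p = 0.337, adjusted p = 0.865) and rho = 0.603 (permutation p = 0.03, adjusted p = 0.27) over 16 mice, and it did not pass. It ran from 0.268 without S6 to 0.671 without S5. Without E and S8, the mice farthest from the median of Herpud1, r was 0.463, and within the genotypes it was 0.529 (CETPtg, n = 8) and 0.386 (APPtg/CETPtg, n = 8). For Atf4, r was 0.37 (permutation p = 0.266, adjusted p = 0.865) and rho 0.185 (permutation p = 0.547, adjusted p = 1), and the relation rested on E and S8, since r was 0.035 without them. The other 7 had r between -0.301 (Edem1) and 0.32 (Xbp1), with an adjusted permutation p of at least 0.865. For Edem1, r was -0.567 without E, between -0.184 and -0.16 without F, S6 or S8, and -0.535 without both E and S8, and for Xbp1 it was 0.115 without S6, 0.149 without S8 and 0.487 without S5. A correlation within groups was thus not detectable for any of the 9 relations with these 16 mice.

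By likeness of pattern over all 16 mice, the genes closest to Herpud1 were Atp5a1 (r = 0.868), Psmd5 (r = 0.86), Rars (r = 0.854), Gm19439 (r = 0.837) and Coq10b (r = 0.836), out of 18608 other genes with a median r of -0.006. These values include the treatment difference that chose Herpud1, and all 5 genes had lower means with evacetrapib, with log2 fold changes from -0.59 (Gm19439) to -0.081 (Atp5a1). With the group means removed, the closest were Igdcc3 (r = 0.889), 4632428C04Rik (r = 0.848), Zswim3 (r = 0.835), Errfi1 (r = 0.833) and Zw10 (r = 0.831), against a median r of -0.004. No gene was in both sets of 5, and no member was in either. The highest of so many values over 16 mice are given as a description, without a p.

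Promoter sequences were examined because several members are textbook targets of the factors of the unfolded protein response. RefSeq windows of GRCm38.p6 from 250 bases before to 50 bases after the start of a gene were available for 9 of the 10 members, Derl1 being the exception, and were searched on both strands for 5 motifs. The ER stress response element ERSE, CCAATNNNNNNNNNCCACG, was in the windows of Hspa5 and Syvn1, 2 of 9, and in 39 of 32851 windows of all genes (0.119%). ERSE-II, ATTGGNCCACG, was in that of Herpud1 alone among the members and in 12 of all windows (0.0365%). The core TGACGTGG of the unfolded protein response element was in 0 of 9 and in 0.676% of all windows, and its complement shares the letters CCACG with the end of both elements. The composite core bound by ATF4, TGATGNAAN, matched Herpud1 on the opposite strand, 113 bases before the start, and 3.95% of all windows. The E-box CACGTG matched Dnajb9 and 7.15% of all windows.

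The stretches around these matches are printed to show how alike the elements of Hspa5 and Syvn1 are and that Herpud1 holds a pair of matches close together. They are chr2:34772020-34772048 (plus strand) for Hspa5, chr19:6046527-6046555 (plus strand) for Syvn1, chr8:94386311-94386392 (plus strand) for Herpud1 and chr12:44210165-44210180 (minus strand) for Dnajb9, with 5 bases on either side of the matches. Capitals mark the fixed letters of the motif, in Herpud1 first those of the ATF4 core, read on the opposite strand, and then those of ERSE-II. The stretches of Herpud1 and Syvn1 lie upstream of the GENCODE M21 gene, and those of Hspa5 and Dnajb9 in an annotated exon.
Hspa5: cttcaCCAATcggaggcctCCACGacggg
Syvn1: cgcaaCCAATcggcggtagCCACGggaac
Herpud1: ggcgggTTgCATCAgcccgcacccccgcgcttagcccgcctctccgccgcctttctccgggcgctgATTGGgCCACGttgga
Dnajb9: ttttcCACGTGcgcgt
A match describes letters only. No relation of the matches to the fold changes was tested.

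**Figure D4:**
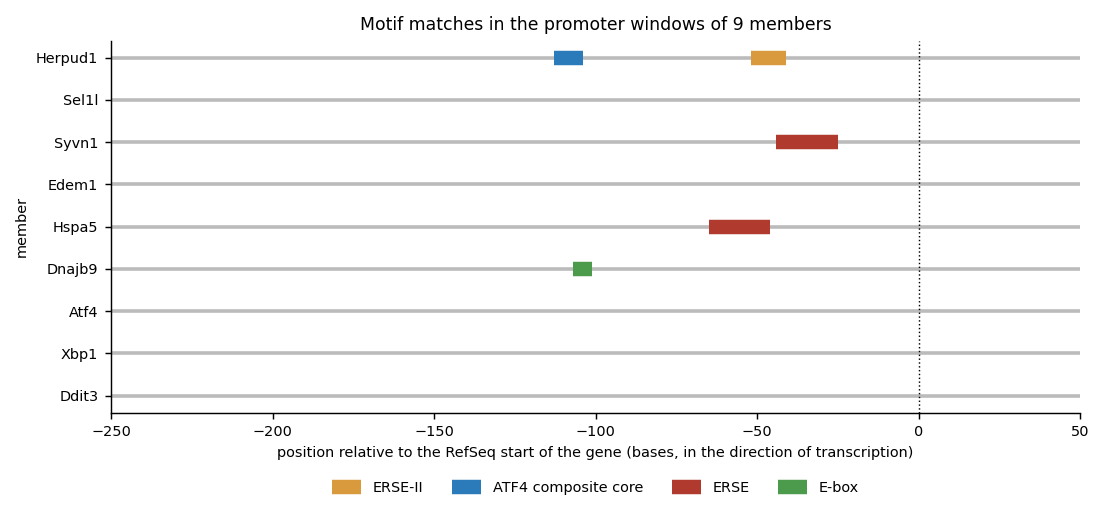
Positions of the motif matches in the promoter windows of 9 members, in bases from the RefSeq start of the gene (dotted line; x axis drawn to scale, in the direction of transcription). ERSE and ERSE-II lie within 65 bases before the start, and the ATF4 core of Herpud1 starts 113 bases before it.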

How the data were processed

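Counts per gene for 55487 Ensembl identifiers were used as deposited: the authors trimmed the reads with Trimmomatic 0.39, aligned them to mm10 with STAR 2.7.8a, processed the alignments with Picard 2.0.1 and counted reads per gene with HTSeq, with no further normalisation. The strand setting of the counting was not stated. Symbols came from the deposited matrix, and positions and exon lengths from GENCODE M21 (GRCm38), which held 55227 of the identifiers. The filter asked for 10 or more counts in 4 or more mice and left 18609 genes, tested with edgeR 4.0.16 (quasi-likelihood F-test, TMM) and limma 3.58.1 in R 4.3.3, with treatment and genotype as terms for comparisons over all mice and with 4 groups for the others. Calling a gene required a Benjamini-Hochberg adjusted p no higher than 0.05 together with a change of 1.05 times or more. Standard errors were derived from the test, as the size of the log2 fold change divided by the square root of F. Levels of members and pathway genes are CPM with TMM library sizes, and marker levels are CPM without TMM factors. Correlations used log2 CPM with a prior count of 2, group means removed, and 100000 permutations within groups, two-sided (Python 3.11.15, numpy 2.4.6, scipy 1.17.1, pandas 2.3.3, matplotlib 3.10.9). Alternatives were DESeq2 1.42.0 and its size factors, other filters, models without the second term, fits to the 8 mice compared, and each mouse left out. A replicate block, the 12 mice sharing plate columns and the fit without the 5 mice with high choroid plexus or pituitary markers were added after the data were seen. Promoters were RefSeq windows of 300 bases. The members, the 5 pathway lists and the 13 marker lists were chosen with earlier results of these data known. Genes of the lists were named by lowest p among those called, up to 5 per list, or by the largest and smallest log2 fold changes.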

Additional observations from a re-analysis of the deposited data

Results flagged for a closer look

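Of 96 groups of 4 values examined, 14 had a mouse far from the other 3 by Dixon's ratio, while about 1 in 20 is expected by chance. None was among the 40 groups of member levels, so no value of Herpud1 or the other members stood apart in this way. Of the 14, 13 were summed marker levels, in CPM without TMM factors. Choroid plexus markers reached 168.3 CPM in S3, against 10.69 to 22.19 CPM in its group, and 28.6 CPM in H, against 12.49 to 14.73 CPM. Pituitary markers reached 873.5 CPM in E, against 1.589 to 2.1 CPM, and 20.68 CPM in S2, against 1.327 to 4.614 CPM. Hypothalamic markers reached 119.5 CPM in S3 (0.3493 to 10.96 CPM in the others), 62.89 CPM in S7 (0.4116 to 0.8295 CPM) and 14.09 CPM in H (0.5647 to 1.169 CPM). Olfactory bulb markers were low in S1, at 58.62 CPM against 121.6 to 134 CPM. How much of these structures was collected and how active their cells were cannot be told apart from the counts.

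Other markers stood out by less. Neuronal markers summed to 5554 CPM in A and to 5018 to 5066 CPM in the rest of its group, and astrocyte markers to 915 CPM in D against 880.1 to 884.3 CPM. Endothelial markers were at 150.4 CPM in S4 against 135.6 to 137.1 CPM, and those of smooth muscle cells and pericytes at 118.5 CPM in H against 104.5 to 105.7 CPM. Meningeal fibroblast markers were low in S5, with 34.07 CPM against 46.75 to 47.02 CPM. The 14th was the total count of S8, 55453789, the highest of all libraries, and S8 was also the lowest vehicle-treated APPtg/CETPtg mouse for Herpud1 and Atf4. Whether depth had a part in those levels was not tested.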

How the results depend on the processing

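Without TMM scaling, 40 of 40 group means of members stayed the same within the spread between mice, and the log2 fold change of Herpud1 with evacetrapib was negative in every fit. It ran from -0.196 to -0.161 over all mice and from -0.325 to -0.262 in APPtg/CETPtg mice when 1 mouse was left out. Where an alternative moved a call or a sign, the cause was not tested, and fits with fewer mice have less power. Over all mice, evacetrapib against vehicle gave 59 genes with DESeq2 (1 member), 35 with no filter beyond 1 count, 1 with no genotype term, 0 in the 12 mice of shared plate columns and 0 without the 5 mice high in choroid plexus or pituitary markers. The count was 0 to 8 when 1 mouse was left out. In CETPtg mice, 9 genes were called with no filter beyond 1 count. In APPtg/CETPtg mice, 73 genes were called with DESeq2 (1 pathway gene), 88 with no filter beyond 1 count (1 pathway gene), 2 in the fit to the 8 mice compared, 5 with a replicate block and 0 in the 12 mice. The number of members called was 0 in the fit to the 8 mice, with a replicate block, in the 12 mice and without the 5 mice. With 1 mouse left out, 0 to 14 genes, 0 to 1 members and 0 to 1 pathway genes were called, and Herpud1 was not called without F, G, H, S2, S4, S5, S6 or S7. For the difference between the genotypes in the evacetrapib effect, DESeq2 called 2 genes and the fit with no filter 29, and leaving out 1 mouse gave 0 to 1. Between the genotypes over all mice, 2184 genes, 6 pathway genes and 0 members were called without the 5 mice. No filter gave 1 member and 9 pathway genes, and a replicate block gave 1 member, Ddit3 being kept in both. With 1 mouse left out, 1 to 2 members and 8 to 22 pathway genes were called. In vehicle-treated mice, 382 genes and 3 pathway genes were called without the 5 mice, 1 member with DESeq2 and 1 with no filter, and with 1 mouse left out 909 to 1998 genes, 0 to 1 members and 2 to 12 pathway genes. In evacetrapib-treated mice, 1135 genes and 3 pathway genes were called with DESeq2, 327 and 0 in the fit to the 8 mice compared, 337 and 0 without the 5 mice, and 91 to 858 and 0 to 2 with 1 mouse left out. Small values of members changed sign, also with evacetrapib. With 1 mouse left out, the evacetrapib value over all mice ran from -0.052 to 0.045 for Hspa5, -0.041 to 0.031 for Xbp1 and -0.034 to 0.002 for Derl1. In CETPtg mice it ran from -0.061 to 0.004 for Syvn1, -0.042 to 0.031 for Derl1, -0.011 to 0.067 for Edem1 and -0.087 to 0.005 for Dnajb9, and in APPtg/CETPtg mice from -0.031 to 0.003 for Sel1l, -0.052 to 0.011 for Derl1 and -0.173 to 0.042 for Hspa5. In the 12 mice, Edem1 had -0.105 in APPtg/CETPtg mice, and Atf4 had -0.003 and Derl1 0.006 in CETPtg mice. Without the 5 mice, Derl1 had 0.03 over all mice, 0.027 in CETPtg and 0.034 in APPtg/CETPtg mice, Hspa5 0.007 over all mice and Dnajb9 0.008 in CETPtg mice. Between the genotypes without the 5 mice, Syvn1 had 0.026 over all mice and 0.036 with evacetrapib, Derl1 -0.005 over all mice, -0.009 with vehicle and -0.001 with evacetrapib, and Hspa5 -0.03 with evacetrapib (-0.005 with no filter). With 1 mouse left out, the genotype log2 fold change over all mice ran from -0.03 to 0.006 for Herpud1, -0.029 to 0.009 for Syvn1 and -0.044 to 0.069 for Atf4. It ran from -0.034 to 0.036 for Syvn1 with vehicle, and with evacetrapib from -0.055 to 0.008 for Syvn1 and -0.022 to 0.029 for Hspa5. Correlations of Herpud1 that changed sign with 1 mouse left out ran from -0.016 to 0.49 for Atf4, -0.244 to 0.137 for Ddit3, -0.252 to 0.009 for Derl1, -0.037 to 0.278 for Dnajb9, -0.194 to 0.099 for Sel1l and -0.152 to 0.369 for Syvn1. Mice of equal replicate number were not alike: of 24 pairs, r ran from -0.203 to 0.173, 1 was over 0.1 and 2 were best with their own number.

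Total counts ran from 21391335 to 55453789, and Edem1 (at least 301), Dnajb9 (at least 484) and Ddit3 (at least 503) had the fewest counts. The spread between mice of a group was widest for Atf4 and Hspa5. Counts per gene show neither the splicing of Xbp1 nor the translation of Atf4, and they measure no protein.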
